A study of Homo sapiens with 6 samples.

Results

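The BCL2 family controls the opening of the outer mitochondrial membrane, the step that commits most cells to apoptosis. Its 10 members examined here are BCL2, BCL2L1 and MCL1, which hold the membrane closed, BAX and BAK1, the effectors that form the pore, and BAD, BID, BIK, BBC3 and PMAIP1, which carry only the BH3 helix and either block the anti-apoptotic members or switch on the effectors. They were taken by Entrez Gene number from expression tables of 27434 rows, in which each member had 1 row of its own. The libraries came from HT-29, an established line of human colon adenocarcinoma cells.

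HT-29 cells were transfected with pooled siRNAs against the lncRNA HOXA-AS3 (siHOXA-AS3), with a pool against the lncRNA HOXB-AS3 (siHOXB-AS3) or with a control pool that has no target (siNT). RNA was taken after 48 h, with 2 polyA RNA-seq libraries per group and 6 in all. The labels give a dose of 10 nM and number the replicates, but do not say whether these were separate cultures, so p-values measure the spread between these libraries, which may be technical. All groups are 1 cell line under the same transfection reagent, and no untransfected cells were among the libraries analysed here.

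The expected counts, which are the fragments RSEM assigns to a gene, summed to between 15998518 and 26263938 per library. HOXA-AS3 had 38 and 18 counts in the siNT libraries and 12 in each of the siHOXA-AS3 libraries (log2 fold change -1.09, standard error 0.403, adjusted p = 0.711 in edgeR), and HOXB-AS3 had 303 and 213 counts with siNT and 67 and 76 with siHOXB-AS3 (-1.96, standard error 0.248, adjusted p = 0.0678). Of 10 colon epithelial markers, 8 were above 1 TPM in every library, while the intestinal factor CDX2 and the surface antigen GPA33 did not reach 1 TPM in any. Of 10 markers of blood, stromal and endothelial cells, 1 was above 1 TPM in every library, CD68, at up to 22.1 TPM. The siHOXA-AS3 libraries differed from each other more than those of the other groups, with an SD across genes of the log2 difference of 0.726, against 0.425 for siNT and 0.371 for siHOXB-AS3.

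The members are related through the BH3 helix, in which a leucine and, further on, an aspartate are the best kept positions and through which pro- and anti-apoptotic proteins hold each other. The coding sequence of this stretch was read from a single chosen transcript of each member (GENCODE, GRCh38), 10 codons each. It is shown because it is the one feature that all of them share. Exon numbers below hold for the chosen transcript. Capitals mark the codon of the conserved leucine and the pair of codons that ends with the conserved aspartate.
BCL2: ctgaccCTCcgccaggccGGCGACgacttc
BCL2L1: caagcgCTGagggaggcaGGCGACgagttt
MCL1: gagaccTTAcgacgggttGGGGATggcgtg
BAX: gagtgtCTCaagcgcatcGGGGACgaactg
BAK1: cggcagCTCgccatcatcGGGGACgacatc
BAD: cgcgagCTCcggaggatgAGTGACgagttt
BID: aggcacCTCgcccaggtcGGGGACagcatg
BIK: ctgcggCTGgcctgcatcGGGGACgagatg
BBC3: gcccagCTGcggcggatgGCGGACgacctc
PMAIP1: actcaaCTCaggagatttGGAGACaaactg

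The leucine codon was CTC in 6 members, CTG in 3 and TTA in MCL1 alone, and the aspartate codon was GAC in 9 members and GAT in MCL1. Across the 45 pairs of members the stretches shared between 11 and 23 of their 30 bases, with a median of 15 and the most between BAK1 and BIK. Among the anti-apoptotic members the stretch lay in exon 1 of 2 of BCL2 (chr18:63318355-63318384, minus strand), exon 2 of 3 of BCL2L1 (chr20:31721928-31721957, minus strand) and exon 1 of 3 of MCL1 (chr1:150578871-150578900, minus strand). For the effectors it lay in exon 3 of 6 of BAX (chr19:48955781-48955810, plus strand) and exon 4 of 6 of BAK1 (chr6:33575393-33575422, minus strand). Among the BH3-only members it lay in exon 3 of 4 of BAD (chr11:64271628-64271657, minus strand), exon 4 of 6 of BID (chr22:17739421-17739450, minus strand) and exon 3 of 5 of BIK (chr22:43127710-43127739, plus strand). It lay in exon 3 of 4 of BBC3 (chr19:47226585-47226614, minus strand) and exon 2 of 2 of PMAIP1 (chr18:59902667-59902696, plus strand).

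HT-29 cells held RNA of 9 of the 10 members, and BAX, BCL2L1 and MCL1 made up most of it. In the siNT libraries the order by TPM, a level scaled by gene length and library size, was BAX at 132 ± 3.15 (SD, n = 2), BCL2L1 at 102 ± 4.86 and MCL1 at 59.5 ± 11.8, followed by BID at 32.8 ± 0.601. BAX, BCL2L1 and MCL1 together held between 79.6% and 84.0% of the summed TPM of the members, over all 6 libraries. BAD stood at 14.2 ± 1.82 TPM, BIK at 8.89 ± 0.0354, BAK1 at 8.26 ± 1.41, BBC3 at 4.54 ± 1.03 and PMAIP1 at 3.61 ± 0.368. BIK and BAK1 overlapped between the siNT libraries, as did BBC3 and PMAIP1, so their order within each pair was not larger than the spread. All other neighbours in this order kept it in 6 of 6 libraries.

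BCL2, the founding member, was close to absent. Its expected counts were 2 and 0 with siNT, 2 and 1 with siHOXA-AS3, and 2 and 4 with siHOXB-AS3, which sum to 11 counts over 6 libraries. Only the library with 4 counts lay above the floor of 3 counts, so no change of BCL2 was detectable at this depth, and its row did not pass the filter on low counts. The length RSEM gave its row also moved between 1206 and 6492 bases from library to library, so its TPM values were not compared. The other 9 members passed the filter in a table of 13034 genes tested.

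**Figure D1:**
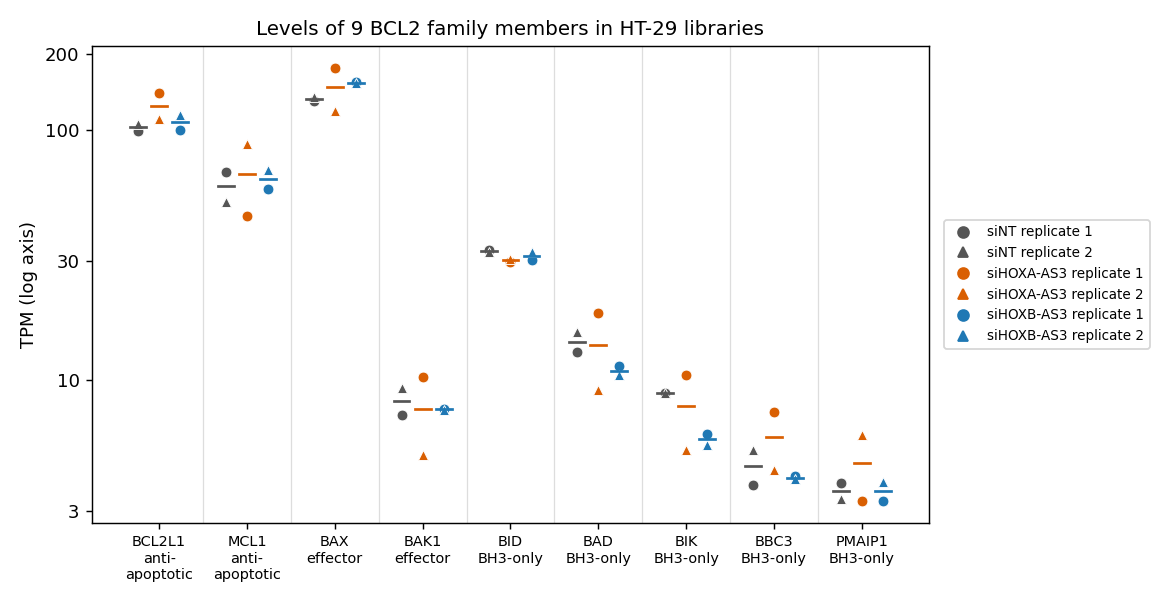
TPM of 9 members on a log axis, grouped by role, with circles for replicate 1, triangles for replicate 2 and a bar for the mean of each group. BAX, BCL2L1 and MCL1 lie between 45.3 and 177 TPM and BAK1 between 5.03 and 10.3, and the siHOXA-AS3 libraries stand furthest apart for most members. BCL2, at 0.24 TPM or less, is not drawn.

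BCL2L1, whose long product BCL-XL is an anti-apoptotic protein of epithelial cells, had 98.7 and 106 TPM with siNT, 139 and 110 TPM with siHOXA-AS3, and 99.2 and 115 TPM with siHOXB-AS3. MCL1, a short-lived anti-apoptotic protein, had 67.9 and 51.2 TPM with siNT, 45.3 and 87.5 TPM with siHOXA-AS3, and 57.8 and 69.2 TPM with siHOXB-AS3. The siHOXA-AS3 libraries thus enclosed the siNT values of MCL1, and the siHOXB-AS3 libraries overlapped with siNT for both genes. For BCL2L1 both siHOXA-AS3 libraries were above siNT in TPM, and replicate 2 overlapped with siNT in log2 CPM, which is the log2 of counts scaled to a common library size with TMM. The ratio of MCL1 to BCL2L1 in TPM ranged from 0.325 in siHOXA-AS3 replicate 1 to 0.795 in siHOXA-AS3 replicate 2, with all other libraries in between.

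BAX, the effector that moves from the cytosol to mitochondria, had 130 and 134 TPM with siNT, 177 and 119 TPM with siHOXA-AS3, and 155 and 153 TPM with siHOXB-AS3. BAK1, the effector that sits in the membrane, had 7.26 and 9.26 TPM with siNT, 10.3 and 5.03 TPM with siHOXA-AS3, and 7.66 and 7.63 TPM with siHOXB-AS3. Both siHOXB-AS3 libraries were above both siNT libraries for BAX, and between them for BAK1. BAX outweighed BAK1 in every library, by 14.5 to 23.7 times in TPM.

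BID, which caspase-8 cuts to link death receptors to mitochondria, was the most abundant BH3-only member, with 33.2 and 32.3 TPM with siNT, 29.7 and 30.6 TPM with siHOXA-AS3, and 30.1 and 32.4 TPM with siHOXB-AS3. BAD, a BH3-only protein held back by phosphorylation, had 12.9 and 15.5 TPM with siNT, 18.6 and 9.12 TPM with siHOXA-AS3, and 11.4 and 10.4 TPM with siHOXB-AS3. BIK, which acts from the endoplasmic reticulum, had 8.91 and 8.86 TPM with siNT, 10.5 and 5.24 TPM with siHOXA-AS3, and 6.11 and 5.52 TPM with siHOXB-AS3. BAD and BIK were below the whole siNT range in the siHOXB-AS3 libraries, and BID was in the siHOXA-AS3 libraries.

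BBC3 (PUMA) and PMAIP1 (NOXA) are BH3-only proteins that are made in response to stress. BBC3 had 3.81 and 5.26 TPM with siNT, 7.49 and 4.37 TPM with siHOXA-AS3, and 4.15 and 4.01 TPM with siHOXB-AS3. PMAIP1 had 3.87 and 3.35 TPM with siNT, 3.30 and 6.04 TPM with siHOXA-AS3, and 3.29 and 3.91 TPM with siHOXB-AS3. For both genes 1 siHOXA-AS3 library stood above all 5 others, replicate 1 for BBC3 and replicate 2 for PMAIP1, and the siHOXB-AS3 libraries overlapped with siNT.

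The first question for each knockdown (KD) was whether the members differed from siNT, and it was asked with edgeR's quasi-likelihood test on all 6 libraries and with p-values adjusted over the 13034 genes tested. Since RNA-seq of a whole culture averages over cells, fewer cells with a transcript and less RNA per cell cannot be told apart. After HOXA-AS3 KD none of the 9 members tested passed an adjusted p of 0.05 in edgeR, with 0% of all genes passing. None passed in DESeq2 either, where 0.508% of genes did, and 0 of the 9 had an unadjusted p below 0.05 in edgeR, against 6.16% of all genes. In log2 CPM only BID had both siHOXA-AS3 libraries on 1 side of both siNT libraries, whereas 28.6% of all genes did.

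The fold changes after HOXA-AS3 KD came with wide intervals. On the log2 scale the highest were BBC3 at 0.42 (standard error 0.356, edgeR's adjusted p = 0.976) and PMAIP1 at 0.34 (standard error 0.318, adjusted p = 0.987). BCL2L1 was at 0.29 (standard error 0.194, adjusted p = 0.952), with a 95% interval from 0.887-fold to 1.68-fold. BAX was at 0.17 and MCL1 at 0.15, while BAD at -0.02, BAK1 at -0.09, BID at -0.14 and BIK at -0.16 were on the other side of 0. The median over the 9 members was 0.15, beside 0.01 over all genes tested. The interval was narrowest for BID, from 0.686-fold to 1.20-fold, and for BBC3 it ran from 0.744-fold to 2.40-fold.

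**Figure D2:**
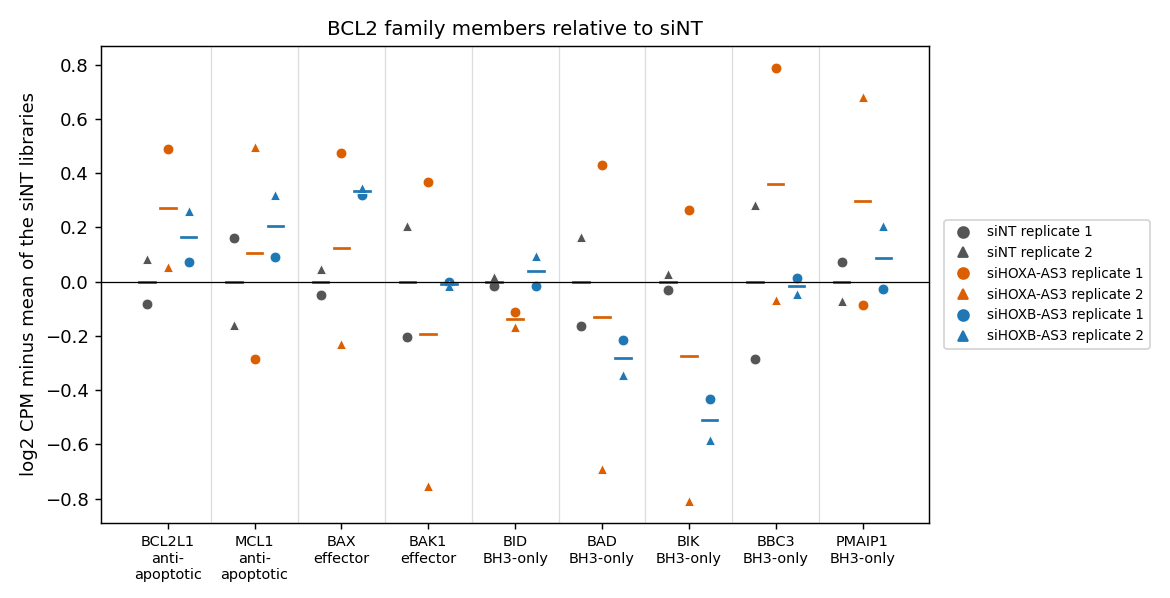
Log2 CPM of each library minus the mean of the siNT libraries, for 9 members by role, with circles for replicate 1, triangles for replicate 2 and a bar for the group mean. The siHOXA-AS3 libraries fall on opposite sides of the siNT libraries for 6 members, and those of siHOXB-AS3 for 0.

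The siHOXA-AS3 libraries pointed in opposite directions for most members. In log2 CPM, for 6 of the 9 members, MCL1, BAX, BAK1, BAD, BIK and PMAIP1, 1 siHOXA-AS3 library was above both siNT libraries and the other below both, as for 42.5% of all genes. With siHOXB-AS3 this held in log2 CPM for 0 of 9 members and for 5.13% of all genes, while in TPM the siHOXB-AS3 values of PMAIP1 lay just outside those of siNT on either side. Relative to the siNT mean in log2 CPM, BAD was at 0.43 and -0.69 in siHOXA-AS3 replicates 1 and 2, BAK1 at 0.37 and -0.75, BIK at 0.26 and -0.81, and BAX at 0.48 and -0.23. MCL1 was at -0.29 and 0.50 and PMAIP1 at -0.09 and 0.68, so these members were higher in the library in which the other 4 were lower.

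Calls for the members changed with the siHOXA-AS3 library that was kept, under the assumption that the remaining one varies as the siNT and siHOXB-AS3 libraries do. Without replicate 1, edgeR called 4 of 9 members, beside 30.3% of all genes, namely MCL1 as higher at 0.48 (adjusted p = 0.00821) and BAK1, BAD and BIK as lower at -0.76, -0.70 and -0.83 (adjusted p = 0.0177, 0.0452 and 0.0456 in edgeR). Without replicate 2 it called 3 of 9, beside 17.9% of all genes, and all were higher. They were BCL2L1 at 0.50, BAX at 0.48 and BBC3 at 0.80, with adjusted p-values of 0.00467, 0.00983 and 0.0329 in edgeR. No member was called in both settings, and BID and PMAIP1 were called in neither.

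The difference between the siHOXA-AS3 libraries moved with the GC content of the transcripts. MCL1 and PMAIP1, the members lower in replicate 1, had the lowest GC content of those tested, at 45.1% and 45.6%, and the other 7 lay between 54.1% (BID) and 64.7% (BAD). Replicate 1 exceeded replicate 2 by 1.12 in log2 CPM for BAD and 0.86 for BBC3, by 0.71 for BAX, 0.43 for BCL2L1 and 0.05 for BID, and fell below it for MCL1 and PMAIP1, at -0.78 and -0.77. Across the 12622 tested genes with a GC value, which are not independent replicates, Pearson's r between this difference and GC content was 0.765, against -0.423 for the siNT libraries and 0.15 for those of siHOXB-AS3.

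With a trend on GC content removed from each library, the median size of the difference between the siHOXA-AS3 libraries over the 9 members was 0.30 in log2 CPM, against 0.78 before. BAX and BBC3 then differed by 0.00 and 0.01, while BIK, BAK1, MCL1 and PMAIP1 still differed by 0.60, 0.50, -0.44 and -0.46. BID went the other way, from 0.05 before to -0.30 after. In that setting edgeR called 0 of 9 members after HOXA-AS3 KD, beside 4.38% of all genes. BCL2L1 came nearest, at 0.34 on the log2 scale (standard error 0.104, edgeR's adjusted p = 0.106).

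After HOXB-AS3 KD, BAX lay above the siNT range and BIK and BAD lay below it in each library, but none of the 9 members passed an adjusted p of 0.05 in edgeR with all 6 libraries in the fit, beside 0.0614% of all genes. None passed in DESeq2, where 2.66% of genes did, and 0 of 9 had an unadjusted p below 0.05 in edgeR, beside 12.2% of all genes. These 3 of 9 members that did not overlap with siNT stand beside 61.8% of all genes. The median log2 fold change was 0.04 over the 9 members and -0.01 over all genes tested.

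BAX was at 0.33 and BIK at -0.52 on the log2 scale after HOXB-AS3 KD (standard errors 0.249 and 0.373, adjusted p = 0.662 and 0.649 in edgeR), which are 1.26-fold and 0.70-fold. The 95% interval ran from 0.836-fold to 1.90-fold for BAX and from 0.379-fold to 1.29-fold for BIK. BAD was at -0.29 (standard error 0.379, adjusted p = 0.832), MCL1 at 0.20 (standard error 0.275, adjusted p = 0.839) and BCL2L1 at 0.17 (standard error 0.194, adjusted p = 0.803). BID was at 0.04, PMAIP1 at 0.09, BAK1 at -0.02 and BBC3 at -0.04, so these estimates were within 0.1 of 0. Their 95% intervals were wider, from 0.777-fold to 1.36-fold for BID, the narrowest, and from 0.541-fold to 1.76-fold for BBC3.

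BAX passed the threshold of edgeR in some other settings and not in others. With siHOXA-AS3 left out of the fit altogether it was at 0.33 (standard error 0.106, adjusted p = 0.0278), in a setting that called 23.3% of all genes. It was called without siHOXA-AS3 replicate 1 (0.34, adjusted p = 0.0269 in edgeR, with 22.7% of genes called) and without replicate 2 (0.33, adjusted p = 0.0246, with 22.6% called). It was also called with the GC trend removed, at 0.40 (adjusted p = 0.0251 in edgeR), where 13.9% of genes were. In each of these 4 settings BAX was the only member called, 1 of 9 or 11.1%, beside the larger shares of all genes given. With both choices together BCL2L1 joined it, at 0.22 (adjusted p = 0.0281) beside 0.40 for BAX (adjusted p = 0.000323 in edgeR), and 34.4% of genes were called. BIK had an adjusted p of 0.107 in edgeR with only the compared groups in the fit and of 0.0876 with both choices. BAX was not called in DESeq2 (0.34, adjusted p = 0.772) or in limma on log2(FPKM + 0.1) (0.26, adjusted p = 0.733). Nor did edgeR call BAX with a block for the replicate numbers alone (0.33, adjusted p = 0.789) or with the length trend removed (0.27, adjusted p = 0.644). Other scalings and filters with all 6 libraries did not call it either.

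The balance between the classes was tallied from the TPM of the members alone, so relatives such as the anti-apoptotic BCL2L2 were not counted. The tally is of RNA summed over all transcripts of a gene, so it does not separate splice forms or give protein. Anti-apoptotic members held 45.5% and 42.9% of the members' summed TPM with siNT, 41.9% and 52.4% with siHOXA-AS3, and 41.9% and 45.9% with siHOXB-AS3. The siNT values lay between the libraries of each KD, and those of siHOXA-AS3 were the furthest apart. The ratio of BAX to BCL2L1 was 1.32 and 1.27 with siNT, 1.27 and 1.08 with siHOXA-AS3, and 1.56 and 1.33 with siHOXB-AS3. Both siHOXB-AS3 libraries were thus above siNT, the second by little, and an exact permutation test of 2 libraries against 2 cannot go below a two-sided p of 0.333. BID made up between 42.7% and 57.6% of the BH3-only sum.

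**Figure D3:**
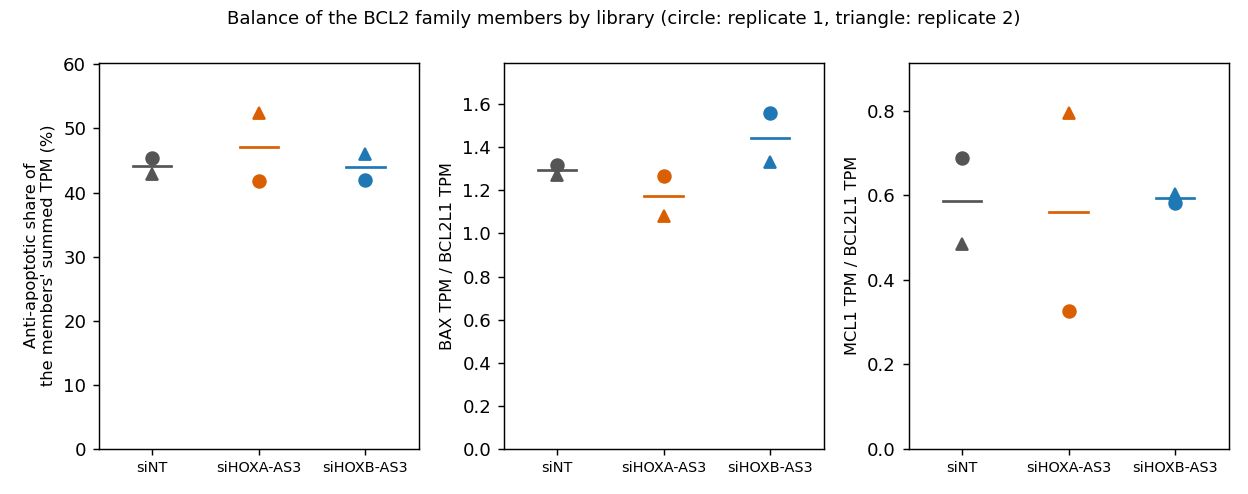
Anti-apoptotic share of the members' summed TPM in percent, ratio of BAX to BCL2L1 and ratio of MCL1 to BCL2L1, each by library, with circles for replicate 1, triangles for replicate 2 and a bar for the group mean. The anti-apoptotic share lies between 41.9% and 52.4%, and siHOXA-AS3 has the library at each end of the MCL1 to BCL2L1 ratio.

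The KDs were then set against each other. None of the 9 members differed between siHOXB-AS3 and siHOXA-AS3 at an adjusted p of 0.05 in edgeR, beside 1.57% of all genes. None did in DESeq2, where 6.05% of genes did, and 0 of 9 had an unadjusted p below 0.05 in edgeR, beside 18.4% of all genes. The log2 differences, siHOXB-AS3 minus siHOXA-AS3, ran from -0.45 for BBC3 (standard error 0.355, adjusted p = 0.56) to 0.18 for BID (standard error 0.172, adjusted p = 0.639). BID was the only member whose groups did not overlap, beside 45.3% of all genes. With replicate 1 of siHOXA-AS3 left out edgeR called BAX at 0.57 and BAK1 at 0.75, beside 37.8% of all genes. Without replicate 2, beside 36% of all genes, it called BCL2L1 at -0.33, MCL1 at 0.49, BAD at -0.72, BIK at -0.79 and BBC3 at -0.82.

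Of 17 other genes named for or related to BCL2, 13 were tested and none passed the threshold of edgeR in any comparison. At an unadjusted p below 0.05 edgeR had 0 of 13 after HOXA-AS3 KD (6.16% of all genes), 1 lower after HOXB-AS3 KD (12.2% of all genes), and 1 higher and 1 lower between the KDs (18.4% of all genes). The most abundant was BCL2L2, an anti-apoptotic relative, at a mean of 78.8 TPM, but its row joins PABPN1 and their readthrough transcript, so that value is uncertain. Among the other anti-apoptotic genes BCL2A1 was listed at 0 in every library and BCL2L10 did not pass the filter, at 0.79 TPM or less. BCL2L11 (BIM), a BH3-only activator, had a mean of 10.4 TPM, above BIK and below BAD, whereas BMF had 3.17 TPM, and HRK was listed at 0. BOK, the effector-like relative, had a mean of 4.55 TPM. The more distant relatives that were tested ran from BCL2L14 at 2.93 TPM to BCLAF1, a nuclear RNA-processing factor, at 39.5 TPM, with BCL2L15 at 5.71, MOAP1 at 7.85, BNIP3L at 16.6, BCL2L13 just above it, BNIP2 at 21.8, BCL2L12 at 23.6 and BNIP1 at 25.2 TPM between them.

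Downstream of the members lies the mitochondrial arm, in which released cytochrome c drives the caspases and the inhibitor of apoptosis proteins restrain them. Of its 21 genes 20 were tested, and edgeR called 0 after HOXA-AS3 KD, 0 after HOXB-AS3 KD and 1 between the KDs. The shares of all genes called were 0%, 0.0614% and 1.57%. BIRC3, an inhibitor of apoptosis protein and NF-kB target, had 2.49 and 1.90 TPM with siNT, 1.20 and 1.98 TPM with siHOXA-AS3, and 6.79 and 8.64 TPM with siHOXB-AS3. Both siHOXB-AS3 libraries were above all 4 others, a feature that the rule for naming genes asked for. Groups did not overlap for 61.8% of all genes after HOXB-AS3 KD and 45.3% between the KDs. The log2 difference was 2.29 from siHOXA-AS3 (standard error 0.326, adjusted p = 0.0373 in edgeR) and 1.85 from siNT (standard error 0.318, adjusted p = 0.101). The adjusted p of the first ranged from 5e-09 to 0.472 over the alternatives.

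BIRC5 (survivin), which also serves in cell division, had 29.6 and 31.5 TPM with siNT, 23.4 and 20.5 TPM with siHOXA-AS3, and 26.5 and 27.6 TPM with siHOXB-AS3. Its log2 fold change after HOXA-AS3 KD was -0.48 (standard error 0.188, adjusted p = 0.76 in edgeR). With the GC trend removed it was -0.42 (adjusted p = 0.049 in edgeR), where 4.38% of all genes were called. DESeq2 did not call BIRC5 (-0.46, adjusted p = 0.867), nor did edgeR with only the compared groups in the fit (-0.45). At an unadjusted p below 0.05 it was the only gene of the arm to be lower after HOXA-AS3 KD, and BIRC3 the only one to be higher after HOXB-AS3 KD, beside 6.16% and 12.2% of all genes in either direction. The medians over its tested genes were -0.04 and 0.06 on the log2 scale.

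Of 12 genes of the death receptor arm, which reaches the mitochondria through caspase-8 and BID, 11 were tested and 0 passed in any comparison in edgeR. At an unadjusted p below 0.05 it had 1 higher and 1 lower after HOXA-AS3 KD, 1 higher and 2 lower after HOXB-AS3 KD and 1 lower between the KDs, beside 6.16%, 12.2% and 18.4% of all genes. TNFRSF10B, a receptor for TRAIL, had 28.7 and 29.4 TPM with siNT, 44.7 and 42.4 TPM with siHOXA-AS3, and 36.2 and 42.4 TPM with siHOXB-AS3, so that all 4 KD libraries were above siNT. Its log2 fold changes were 0.58 and 0.52 (standard errors 0.17 and 0.17, adjusted p = 0.615 and 0.278 in edgeR). TNFSF10, which encodes TRAIL itself, had 4.53 and 3.54 TPM with siNT, 1.41 and 2.64 TPM with siHOXA-AS3, and 2.00 and 1.60 TPM with siHOXB-AS3. It was lower in all 4 KD libraries, at -1.04 and -1.08 (standard errors 0.342 and 0.34, adjusted p = 0.649 and 0.27 in edgeR). Both comparisons share the siNT libraries. Both genes were named by a rule that asked for groups that do not overlap, here after HOXA-AS3 KD. Groups did not overlap for 28.6% of all genes after HOXA-AS3 KD and for 61.8% after HOXB-AS3 KD. With the GC trend removed edgeR called TNFRSF10B after both KDs (adjusted p = 0.0183 and 0.0134), beside 4.38% and 13.9% of all genes. TNFSF10 was called there as well (adjusted p = 0.0455 and 0.0196 in edgeR). DESeq2 called neither gene after either KD (adjusted p = 0.403 and 0.269 for TNFRSF10B, 0.668 and 0.273 for TNFSF10). With only the compared groups in the fit edgeR called both after HOXB-AS3 KD (adjusted p = 0.00113 and 0.00362), beside 23.3% of all genes. After HOXA-AS3 KD that setting called neither.

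Of 21 genes that control the members, by transcription, phosphorylation, binding or breakdown, 20 were tested and 0 passed in any comparison in edgeR. The counts at an unadjusted p below 0.05 in edgeR were 0 after HOXA-AS3 KD, 2 higher and 2 lower after HOXB-AS3 KD, and 5 higher and 2 lower between the KDs, beside 6.16%, 12.2% and 18.4% of all genes. MYC, a transcription factor that sensitizes cells to apoptosis, had 153 and 138 TPM with siNT, 177 and 184 TPM with siHOXA-AS3, and 264 and 317 TPM with siHOXB-AS3. The 3 groups did not overlap, which for siHOXB-AS3 against each of the others was part of the rule that named MYC. Groups did not overlap for 28.6% of all genes after HOXA-AS3 KD, 61.8% after HOXB-AS3 KD and 45.3% between the KDs. MYC was at 1.09 after HOXB-AS3 KD (standard error 0.154, adjusted p = 0.0774 in edgeR). It was at 0.30 after HOXA-AS3 KD (standard error 0.153, adjusted p = 0.871 in edgeR). With DESeq2 the adjusted p after HOXB-AS3 KD was 0.000103 for MYC and 8.44e-06 for BIRC3, where 2.66% of all genes were called. With a block for the replicate numbers edgeR called 0 genes after HOXB-AS3 KD, so MYC and BIRC3 did not pass in that setting.

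**Figure D4:**
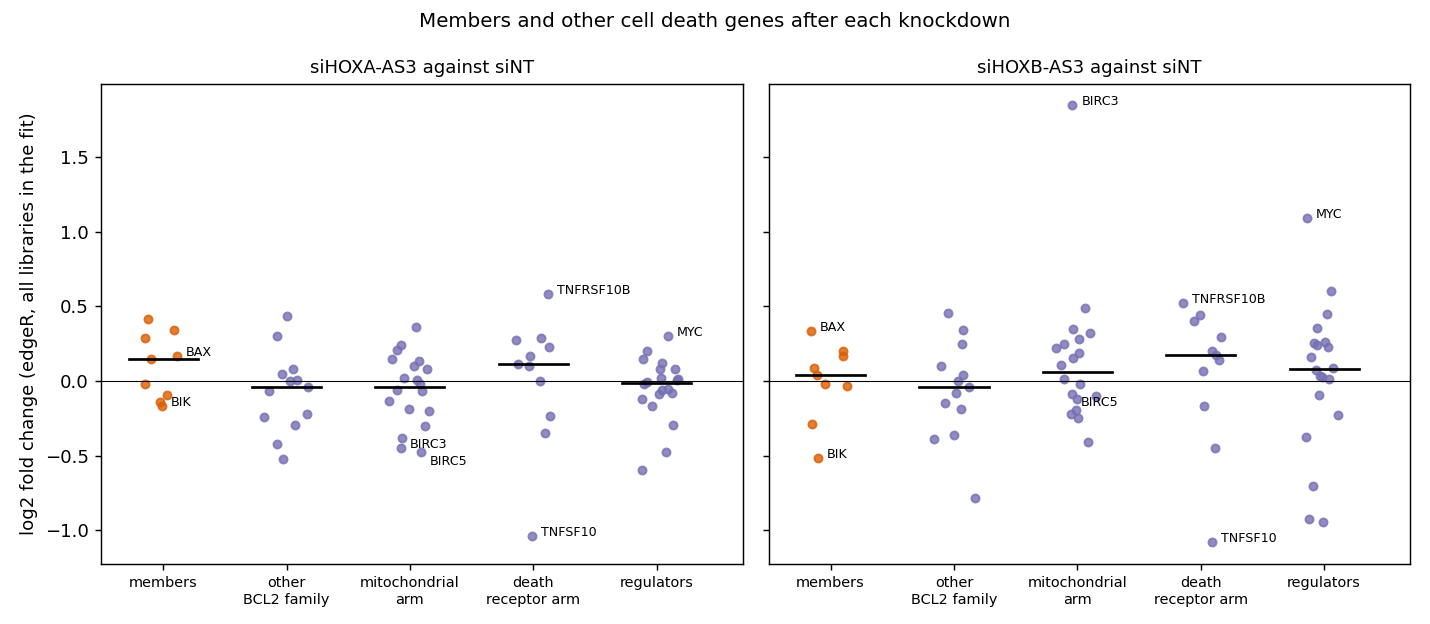
Log2 fold changes against siNT in edgeR's fit of all 6 libraries, after HOXA-AS3 KD (left) and HOXB-AS3 KD (right). Each point is a gene, spread sideways at random for view, and each bar is the median of a list. The members lie between -0.52 and 0.42, while BIRC3 at 1.85 and MYC at 1.09 stand highest after HOXB-AS3 KD. A gene of the mitochondrial arm that is not reported is not drawn.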

How the data were processed

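Per the labels, polyA RNA of HT-29 cells was made into libraries with Lexogen's SENSE mRNA kit. For every library the authors ran RSEM against RefSeq genes. The authors deposited its expected counts, estimated per gene, which are not normalized, together with TPM and FPKM, both scaled by gene length and depth. The submitters' processing notes name hg19 and RSEM. The aligner, the RSEM version and whether counting used the strand were not given in the sources used. The study's methods and the labels differ in the siRNA dose and the extraction kit, and the labels' dose is given.

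The members and the gene lists were chosen with earlier results of these data known, so no p-value was adjusted over a list alone. The genes named are the 10 members, both targeted lncRNAs, and from the 4 lists each gene past the threshold and, per comparison, the 3 with the smallest unadjusted p among those with a mean of at least 1 TPM and groups that did not overlap. Other family genes were also given by level. Among the genes of the lists, 2 are not reported here. Rows were matched to symbols by Entrez number.

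Expected counts were rounded and tested with edgeR 4.0.16 under R 4.3.3 (filterByExpr with a minimum count of 10, TMM, robust quasi-likelihood fit, Benjamini-Hochberg adjustment over 13034 genes, threshold 0.05). Standard errors are those implied by the test's F statistic, and intervals use its degrees of freedom. Log2 CPM used a prior count of 2. GC content was the median over the GENCODE transcripts (GRCh38) that carry a gene's Entrez number, for 96.8% of genes tested. The BH3 stretches came from RefSeq-matched transcripts of the same annotation, so coordinates are in that build and not in that of the files. Per member the transcript was chosen by the annotation's principal rank and then by the longest coding sequence. In BID the core motif matched at 2 places, and a score of hydrophobic residues around it set the choice. Total expected counts ran from 15998518 to 26263938, and no pair of libraries was identical (smallest chi-square per degree of freedom 7.07). Alternatives were DESeq2 1.42.0, limma 3.58.1 on log2(FPKM + 0.1) and log2(FPKM + 1), other scalings and filters, other sets of libraries, and trends on length or GC content. The calling step was tested on simulated data.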

Additional observations from a re-analysis of the deposited data

Results flagged for a closer look

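BIRC3 stood out because its change differed between the KDs by a test of that difference. The log2 difference, siHOXB-AS3 minus siHOXA-AS3, was 2.29 (edgeR, standard error 0.326, adjusted p = 0.0373), where 1.57% of all genes were called. With only the compared groups in the fit it was 2.28 (adjusted p = 0.117 in edgeR). Both siHOXB-AS3 libraries were above both siHOXA-AS3 libraries, and groups did not overlap for 45.3% of all genes. No BCL2 family member met such a test, as was the case for most genes. Groups of 2 libraries are too small for a test of single outlying samples.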

How the results depend on the processing

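With all 6 libraries in edgeR's fit 0, 8 and 204 genes were called after HOXA-AS3 KD, after HOXB-AS3 KD and between the KDs. DESeq2 called 56, 329 and 767, and edgeR with no filter 24, 265 and 706. With only the compared groups in the fit edgeR called 2995 after HOXB-AS3 KD and 2 between the KDs. Limma called 1 after HOXA-AS3 KD on log2(FPKM + 0.1), and 93 and 76 between the KDs with the lower and higher pseudocount, and a length trend gave 1 after HOXA-AS3 KD. Removing the GC trend gave 571, 1815 and 3391. Leaving out 1 library gave 0 to 4031, 0 to 3035 and 0 to 5027. The replicate block gave 0 after HOXB-AS3 KD and 10 between the KDs. Replicate differences correlated at -0.347 (siNT with siHOXA-AS3), -0.139 (siNT with siHOXB-AS3) and 0.15 (siHOXA-AS3 with siHOXB-AS3). Since these differences also moved with GC content in siHOXA-AS3 and siNT, the correlations cannot tell whether the labels' numbers pair the libraries. Chosen after the data had been seen, the GC trend gave 76, 4411 and 2293 with only the compared groups and 379, 1409 and 2908 with the replicate block, and a crossed pairing gave 77 and 3906 for the KDs against siNT. Leaving out a siHOXA-AS3 library aside, no alternative called a member after HOXA-AS3 KD or between the KDs. The causes were not tested.

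Signs of members near 0 turned. BAD after HOXA-AS3 KD was at 0.0061 with no filter. After HOXB-AS3 KD BID was at -0.0073 with library totals and at -0.0225 and -0.0216 in limma. With the GC trend removed, then with only the compared groups and with the replicate block, BAK1 was at 0.053, 0.0553 and 0.0513 and BBC3 at 0.0951, 0.0981 and 0.0977. Leaving out 1 library turned 7 members after HOXA-AS3 KD, namely MCL1 (-0.29 to 0.48), BAX (-0.23 to 0.48), BAK1 (-0.76 to 0.37), BAD (-0.70 to 0.44), BIK (-0.83 to 0.28), BBC3 (-0.078 to 0.80) and PMAIP1 (-0.088 to 0.68). After HOXB-AS3 KD it turned BAK1 (-0.22 to 0.20), BID (-0.016 to 0.10), BBC3 (-0.31 to 0.27) and PMAIP1 (-0.031 to 0.21). Between the KDs it turned BCL2L1 (-0.33 to 0.12), MCL1 (-0.28 to 0.49), BAX (-0.15 to 0.57), BAK1 (-0.38 to 0.75), BAD (-0.72 to 0.42), BIK (-0.79 to 0.31), BBC3 (-0.82 to 0.056) and PMAIP1 (-0.60 to 0.17). BAX after HOXB-AS3 KD ran from 0.28 to 0.38. With the GC trend and the replicate block together BAX was called after HOXB-AS3 KD (edgeR, adjusted p = 0.0472), beside 10.8% of all genes. The anti-apoptotic share in siNT was 44.2% of the members' TPM and 46.4% with counts per kilobase. Without BAX it was 69.1% in siNT, 73.2% in siHOXA-AS3 and 72.9% in siHOXB-AS3, so siHOXB-AS3 went from below siNT to above it. With BAX siHOXB-AS3 was at 43.9%, nearer to siNT than the SD of either group (1.83 points in siNT, 2.83 in siHOXB-AS3, n = 2). BAX was itself higher in the siHOXB-AS3 libraries, so leaving it out raised the share of that group more than that of siNT. Depth limited BCL2, at 4 counts or fewer in each library.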

Other observations

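The lists around the family also held genes of high level, named here after their values had been seen, with means over all 6 libraries. Among the regulators YWHAZ, a 14-3-3 protein of the kind that binds phosphorylated BAD, had a mean of 1284 TPM, and the stress factor ATF4 had 919 TPM. The mean of YWHAZ covered unequal libraries, with 1664 and 1472 TPM in siNT, 1070 and 1950 TPM in siHOXA-AS3, and 766 and 782 TPM in siHOXB-AS3, where ATF4 was higher at 943 and 903 TPM. YWHAE, another 14-3-3 protein, had 662 TPM, and TRIB3, a target of ATF4, had 474 TPM. In the mitochondrial arm the pore proteins VDAC2 and VDAC1 led with 166 and 138 TPM, above CYCS, which encodes cytochrome c, at 62.3 TPM. CFLAR, the decoy that restrains caspase-8, led the death receptor arm with 91.3 TPM, beside 19.6 TPM for CASP8, and FASLG was listed at 0.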
